A study of Mus musculus with 12 samples.

Results

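The Wnt pathway genes described here are the 67 genes, of 21937 in the deposited table, whose symbol matches a fixed set of names: the Wnt ligands and Porcn, the frizzled receptors with Lrp5 and Lrp6, the R-spondins with Lgr4, Lgr5 and Lgr6, the secreted inhibitors Sfrp, Dkk and Wif1, the dishevelled proteins, beta-catenin (Ctnnb1) with its destruction complex and the casein kinases 1, and the TCF/LEF transcription factors. The genes were taken by symbol and not by a measured value. The members and their role groups were, however, chosen with earlier results of these data known. By role, 48 of the products act outside the cell or in its membrane (20 ligands and Porcn, 12 frizzled and Lrp5/6 receptors, 7 R-spondins and Lgr receptors, 9 secreted inhibitors; Porcn itself sits in the membrane of the endoplasmic reticulum) and 19 act inside the cell (3 dishevelled proteins, 12 of beta-catenin, the destruction complex and casein kinase 1, and 4 TCF/LEF factors).

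In canonical Wnt signalling, a secreted ligand that was lipid-modified by Porcn binds a frizzled receptor together with Lrp5 or Lrp6. Dishevelled then inhibits the destruction complex of Axin, Apc, casein kinase 1 and glycogen synthase kinase 3, beta-catenin is no longer degraded, and it acts in the nucleus with TCF/LEF factors. R-spondins and their Lgr receptors raise the amount of frizzled at the cell surface, whereas Sfrp, Wif1 and several Dkk proteins act outside the cell as inhibitors. In the oligodendrocyte lineage the pathway is known as a regulator of the timing of differentiation, with Tcf7l2 and Apc among the genes that have been studied there.

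The RNA came from a light membrane fraction enriched for myelin, prepared from brains of male c57Bl6/N mice at 4 ages: postnatal day 18 (P18), postnatal day 75 (P75), 6 months and 24 months. No mouse was treated and no allele was altered. Each age had 3 libraries, each from another mouse, so that age was compared between animals. The libraries held 20299052 to 27214385 reads in the table, and Mbp alone, the transcript of myelin basic protein, took between 4.76% and 20.8% of them. All 8 mature oligodendrocyte and myelin markers examined were detected at every age, with a summed normalized read count of 2463430 to 6173140 at P18 and 1267790 to 2364840 at the later ages. In such bulk RNA, fewer cells of a type and less RNA per cell cannot be told apart, and neither can transcripts inside myelin and those of other cells carried into the fraction.

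Wnt pathway transcripts spanned a wide range of levels in myelin. Testing required an average of 10 or more normalized reads across the 12 libraries, which 59 of the 67 genes reached, and 38 averaged over 100. The 8 genes below the limit were Dkk1, Dkk4, Rspo4, Wnt1, Wnt3a, Wnt8a, Wnt8b and Wnt16, and Dkk4 had no read in any library. Per kilobase of merged exon, the only scale on which genes were compared with each other, Ctnnb1 was highest with a mean of 3669 normalized reads per kilobase, followed by the kinase Gsk3a with 1359, the casein kinase Csnk1g2 with 1247, Dkk3 with 865 and Apc with 807. The highest receptor was Fzd3 with 484 normalized reads per kilobase and the highest Wnt ligand Wnt7a with 98.7, whereas Lef1 was the lowest TCF/LEF factor with 3.87. Fzd10 could not be matched to the annotation and has no length-corrected level.

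**Figure D1:**
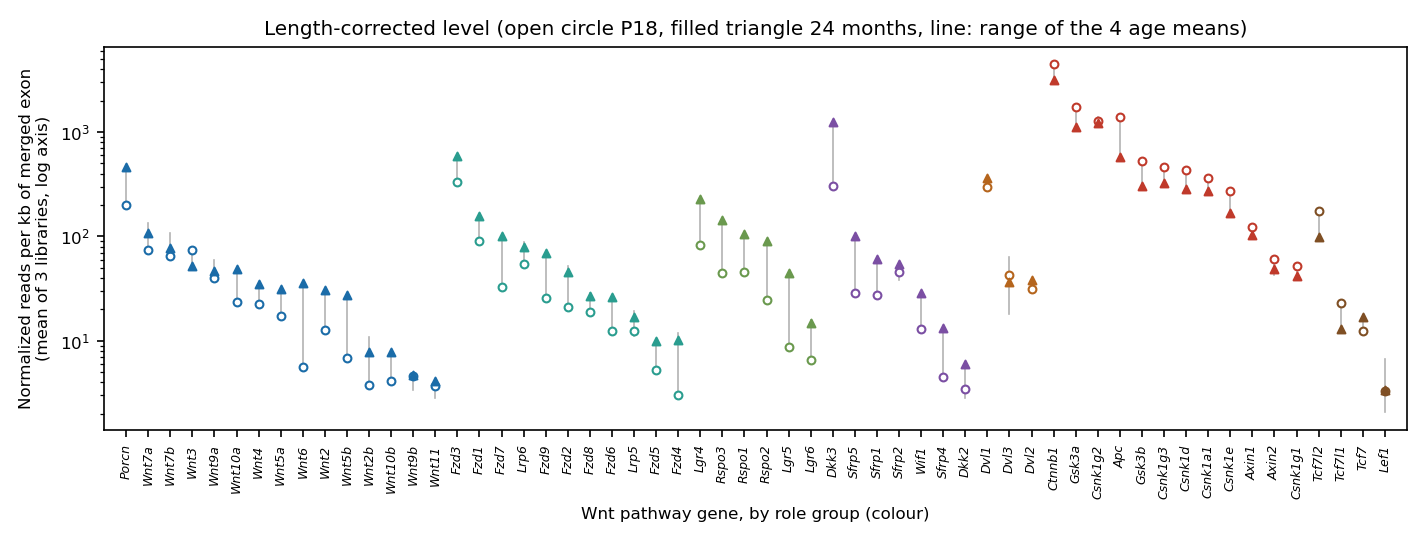
Normalized reads per kilobase of merged exon (mean of 3 libraries, log axis) for the tested Wnt pathway genes with a known length, ordered by role group and level; open circles are P18, filled triangles 24 months, and lines span the 4 age means. In the first 4 role groups nearly every triangle lies above its circle, whereas in the group that starts with Ctnnb1, which averaged 3669 normalized reads per kilobase, every triangle lies below it.

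With age, transcripts for ligands, receptors, R-spondins and secreted inhibitors rose, whereas transcripts for the destruction complex and Tcf7l2 fell. From P18 to 24 months, 37 of the 59 tested genes rose and 13 fell at an adjusted p under 0.1 (limma on log2(normalized read count + 1), Benjamini-Hochberg over all genes tested), against 34.7% higher and 34.3% lower of all 14634 genes tested. By place of action, 34 of the 40 tested genes for secreted or membrane proteins rose and 1 fell, and 3 of the 19 for intracellular proteins rose and 12 fell. The median log2 change was 1.07 in the former, -0.39 in the latter and -0.01 over all genes tested. A change of at least 2-fold was called for 23 members, 22 of them secreted or membrane and higher, against 18.4% of all genes. Summed over genes, the normalized read count of the secreted and membrane group lay between 6749 and 7238 at P18 and between 14798 and 17080.3 at 24 months, and that of the intracellular group between 69029.9 and 74370.1 at P18 and between 44429 and 45781 at 24 months. The ages did not overlap in either sum.

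Lower and higher expressed genes differed in their background, with 35.9% higher and 29.8% lower of all genes with a mean of 10 to 1000, and 31.9% higher and 44.5% lower of those over 1000. The 3 secreted or membrane members with a mean over 1000, Porcn, Fzd3 and Dkk3, all rose. Of the 8 intracellular members with a mean of 10 to 1000, 2 rose and 3 fell. Under quantile normalization, which moved the median log2 change of all genes to -0.11, 30 members rose and 15 fell, with 29 and 1 among the secreted and membrane genes.

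**Figure D2:**
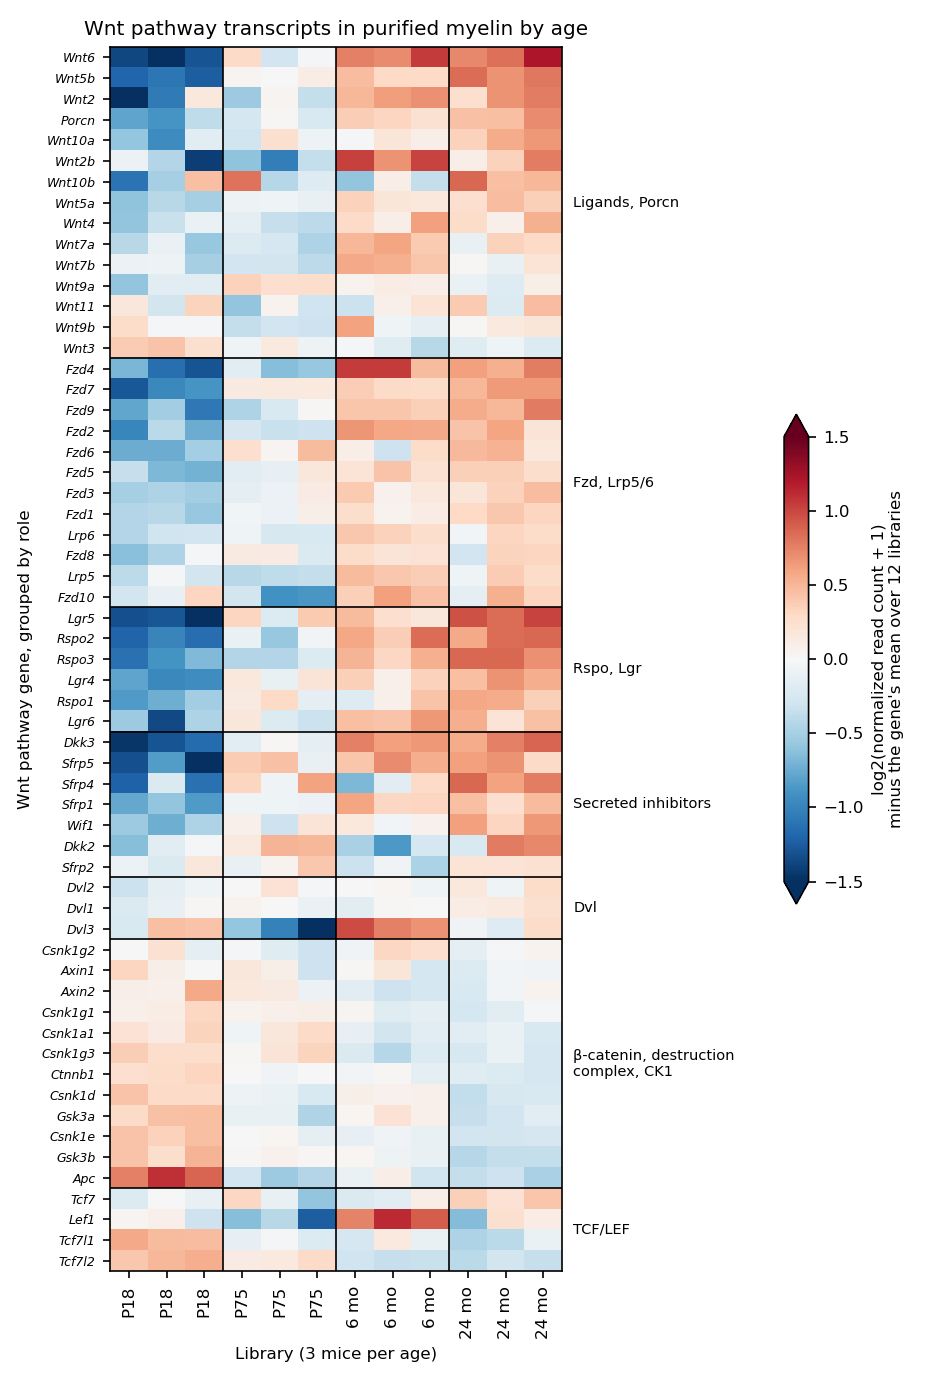
Heat map of log2(normalized read count + 1) minus the gene's own mean over 12 libraries for the 59 tested Wnt pathway genes (rows, by role, ordered by their change from P18 to 24 months) in 3 libraries per age (columns); red is above and blue below the mean, and colours saturate at the ends of the scale. Secreted and membrane genes are mostly blue at P18 and red at 24 months, the destruction complex runs the other way, and Dvl3 and Lef1 are darkest red at 6 months.

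Step by step, 25 members rose and 12 fell from P18 to P75, against a background of 25.9% higher and 22.9% lower. All 25 that rose were secreted or membrane genes, and 10 of the 12 that fell were intracellular. At least 2-fold changes were called for 9 members, against 4.54% of all genes. When the libraries were scaled to the same total instead, which moved the median log2 change of all genes from 0.02 to 0.14, 29 members rose and 7 fell, and of the intracellular genes 1 rose and 6 fell. From P75 to 6 months, 26 (44.1%) of 59 members rose and 6 (10.2%) fell, against 31.2% and 29.4%. Changes of at least 2-fold were called for 5 of the 59, close to the 9.31% of all genes. Here the places of action were less apart, with 20 higher and 2 lower of 40 secreted or membrane genes and 6 higher and 4 lower of 19 intracellular genes.

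Between 6 and 24 months fewer members changed, as did fewer of all genes. Calls were made for 11 higher (18.6%) and 6 lower (10.2%) of 59, close to the 16.6% and 12.7% of all genes. Of these, 1 was a change of at least 2-fold (Lef1), also close to the share of 1.68% of all genes. The balance of this step depended on scaling, with 4 higher and 8 lower for libraries of the same total and 7 higher and 8 lower after quantile normalization. Single libraries also moved it: without replicate 1 of 6 months 2 rose and 7 fell. Without replicate 2 of 6 months or replicate 2 of 24 months 3 rose and 6 fell. Without replicate 1 or 3 of 24 months 5 rose and 6 fell, and without replicate 3 of 6 months 7 rose and 7 fell. At a false discovery rate of 0.05, 4 rose and 6 fell. Rises still outnumbered falls with edgeR (14 and 6) and without replicate 3 of P18 (15 and 9). The 4 comparisons of ages share libraries and are not independent of each other. Over the 3 consecutive steps, 51 members were called at least once, 19 of them higher in 2 or more steps and never lower, 2 (Gsk3b and Tcf7l2) lower in 2 steps and never higher, and 9 in both directions. These patterns were not counted over all genes, so that no background stands beside them and they cannot be read as particular to the members.

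**Figure D3:**
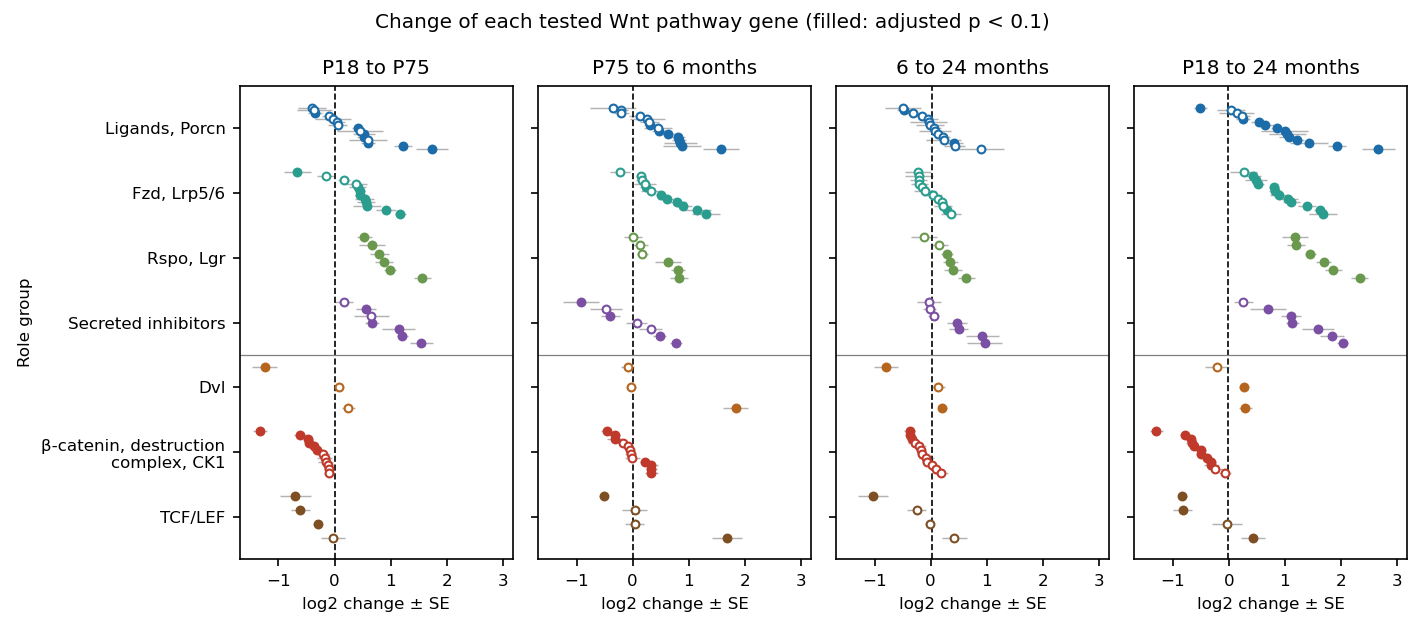
Log2 change ± SE of each tested Wnt pathway gene by role group in the 4 comparisons; filled points passed an adjusted p of 0.1, open points did not, the dashed line is the median of all 14634 genes and the horizontal line parts secreted and membrane groups (above) from intracellular groups (below). In the rightmost panel all 6 R-spondins and Lgr receptors lie right of the line, and no gene of the destruction complex does.

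Promoter sequence was read for 44 of the 67 genes, with 57 promoters of 250 bases before to 50 after a transcript start (RefSeq, build GRCm38.p6, unlike the counts, which use mm9). The letters CTTTGA and CTTTGTT, the core that TCF/LEF factors recognise, were searched on both strands. They share their first 5 letters and cannot match the same position of a strand. Any match was found in 10 of the 57 promoters (17.5%), against 20.7% of all 32851 promoters of this length. CTTTGA was in 12.3% of member promoters and 16% of all, and CTTTGTT in 7.02% and 5.85%. The 4 promoters below, 5′ to 3′ on the gene's strand with matches in capitals, belong to a receptor that rose from P18 to 24 months, to the feedback inhibitor Axin2, which is widely used as a reporter of the pathway and had no match, and to the TCF/LEF factors Lef1 and Tcf7l2, where the match lay at an internal start. A match is a stretch of letters and not evidence of binding.
Fzd7, chr1:59481897-59482196, plus strand: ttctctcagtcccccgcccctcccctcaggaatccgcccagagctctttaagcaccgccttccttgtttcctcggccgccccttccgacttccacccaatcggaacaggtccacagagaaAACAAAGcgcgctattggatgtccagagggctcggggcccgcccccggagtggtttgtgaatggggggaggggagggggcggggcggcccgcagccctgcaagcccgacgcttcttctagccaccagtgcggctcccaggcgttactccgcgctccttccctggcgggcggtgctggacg
Axin2, chr11:108920099-108920398, plus strand: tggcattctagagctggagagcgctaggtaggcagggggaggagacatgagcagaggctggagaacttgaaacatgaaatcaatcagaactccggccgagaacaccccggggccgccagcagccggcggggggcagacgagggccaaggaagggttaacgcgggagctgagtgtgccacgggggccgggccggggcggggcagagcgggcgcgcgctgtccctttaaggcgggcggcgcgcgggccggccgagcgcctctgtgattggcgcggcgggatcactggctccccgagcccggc
Lef1 (internal start), chr3:131156044-131156343, plus strand: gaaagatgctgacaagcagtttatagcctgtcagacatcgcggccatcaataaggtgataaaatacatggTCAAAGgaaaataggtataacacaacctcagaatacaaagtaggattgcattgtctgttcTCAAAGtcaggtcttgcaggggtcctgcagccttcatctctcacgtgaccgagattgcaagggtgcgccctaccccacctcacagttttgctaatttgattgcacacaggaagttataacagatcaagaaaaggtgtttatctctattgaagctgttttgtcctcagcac
Tcf7l2 (internal start), chr19:55895071-55895370, plus strand: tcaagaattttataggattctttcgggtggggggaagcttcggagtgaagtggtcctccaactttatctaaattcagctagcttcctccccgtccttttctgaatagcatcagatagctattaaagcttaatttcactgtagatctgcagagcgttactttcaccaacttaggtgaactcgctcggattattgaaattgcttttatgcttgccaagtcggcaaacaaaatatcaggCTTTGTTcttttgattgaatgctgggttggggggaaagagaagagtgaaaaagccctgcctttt

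Among the ligands, 11 of 15 tested genes including Porcn rose from P18 to 24 months and 1, Wnt3, fell. Porcn, the acyltransferase that Wnt proteins need for secretion, had normalized read counts of 549, 514 and 729 at P18, 794, 963 and 814 at P75, 1232, 1189 and 1117 at 6 months and 1291, 1298 and 1553 at 24 months. Every library of an age lay above every library of the age before. The log2 change from P18 to 24 months was 1.22 ± 0.12 (SE, n = 3 per age, adjusted p = 2.8e-07 by limma). Wnt2 had 13.1, 21.5 and 51.2 at P18, 31.1, 47.3 and 35.4 at P75, 65.0, 71.0 and 74.0 at 6 months and 54.5, 73.5 and 78.7 at 24 months. Its P18 libraries spread from 13.1 to 51.2, and the rise of 1.44 ± 0.34 on the log2 scale (adjusted p = 0.0014) still left P18 and 24 months apart. Wnt10a had 55.8, 42.9 and 74.3 at P18, 68.1, 99.2 and 79.6 at P75, 82.9, 95.0 and 89.5 at 6 months and 107, 123 and 131 at 24 months, with a log2 change over the whole span of 1.08 ± 0.19 (adjusted p = 0.00012).

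The largest log2 change of any member belonged to a low transcript, Wnt6, at 2.67 ± 0.29 from a mean of 11.7 at P18 to 74.8 at 24 months (adjusted p = 6.8e-07). It was named after its values were seen, like Wnt5b (18 to 71.8, log2 change 1.94 ± 0.17) and the related ligands Wnt7a and Wnt7b, which had the most reads per kilobase among the ligands. Wnt7a and Wnt7b stayed level from P18 to P75 within their spread, with log2 changes of 0.05 ± 0.14 and -0.10 ± 0.12. Both then rose from P75 to 6 months, by 0.80 ± 0.14 and 0.83 ± 0.12 (adjusted p = 0.00017 and 3.6e-05), and Wnt7b fell from 6 to 24 months by 0.47 on the log2 scale (SE 0.12, adjusted p = 0.014). Wnt3 ran against its group, from a mean of 229 at P18 to 161 at 24 months (log2 change -0.50 ± 0.12, adjusted p = 0.002). Without Porcn, the summed normalized read count of the 19 ligands was 1257 to 1368 at P18 and 1362 to 1477 at P75. It was 1941 to 2041 at 6 months and 1689 to 1976 at 24 months, so that its mean was highest at 6 months.

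Of the 12 receptors, 11 rose from P18 to 24 months and none fell, Fzd10 being the exception that was not called. Fzd7, a frizzled receptor with a single exon on chromosome 1 (mm9, 59538991 to 59543791, plus strand), had 133, 165 and 175 normalized reads at P18, 354, 356 and 356 at P75, 415, 392 and 391 at 6 months and 457, 502 and 502 at 24 months. The ages were apart at each step, with most of the rise between P18 and P75. Log2 changes were 1.18 ± 0.11 from P18 to P75 (adjusted p = 9.7e-07) and 1.63 ± 0.11 from P18 to 24 months (adjusted p = 2.6e-09).

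Fzd3, the most abundant receptor per kilobase and one known for axon guidance, had 1408, 1442 and 1383 at P18, 1813, 1869 and 2161 at P75, 2622, 2076 and 2226 at 6 months and 2254, 2532 and 2743 at 24 months. It rose by 0.83 ± 0.10 on the log2 scale over the whole span (adjusted p = 2.7e-06), and the 6- and 24-month libraries overlapped. Fzd9 had 59.4, 71.2 and 48.2 at P18, 74.2, 87.2 and 104 at P75, 137, 137 and 131 at 6 months and 152, 145 and 176 at 24 months, which gave 1.40 ± 0.16 (adjusted p = 1.5e-06). Both genes rose at each of the first 2 steps and neither was called higher from 6 to 24 months. The second step of Fzd3 (0.24 ± 0.10, adjusted p = 0.054) was lost without replicate 1 of 6 months or replicate 1 or 2 of P75 (adjusted p 0.14 to 0.26).

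Fzd2 had 61.8, 92.6 and 73.3 at P18, 103, 97.4 and 99.5 at P75, 196, 185 and 183 at 6 months and 166, 186 and 141 at 24 months. Most of its rise came after P75 (0.90 ± 0.15 from P75 to 6 months, adjusted p = 0.00012). Fzd6, which is known for planar cell polarity, had 47.5, 47.5 and 56.2 at P18, 96.2, 82.5 and 112 at P75, 86.1, 64.8 and 97.3 at 6 months and 113, 116 and 89.8 at 24 months. In contrast to Fzd2, its rise lay between P18 and P75 (0.92 ± 0.18, adjusted p = 0.0007), and the 3 later ages overlapped. The coreceptors Lrp5 and Lrp6 changed by -0.16 ± 0.16 and 0.17 ± 0.10 from P18 to P75, which was not called, and rose from P75 to 6 months by 0.80 ± 0.16 and 0.51 ± 0.10 (adjusted p = 0.00045 and 0.00054).

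All 6 tested R-spondins and Lgr receptors rose at least 2-fold from P18 to 24 months, with a median log2 change of 1.58. Their summed normalized read count was 863 to 899.5 at P18, 1535 to 1870.5 at P75, 1932 to 2298 at 6 months and 2607 to 2825 at 24 months, with no overlap between consecutive ages. Lgr5, an R-spondin receptor best known as a stem cell marker (chromosome 10, 114887367 to 115024836, minus strand, mm9), had 95.1, 97.2 and 77.3 at P18, 297, 206 and 312 at P75, 329.8, 284 and 268 at 6 months and 463, 427 and 480.4 at 24 months. It was level from P75 to 6 months within its spread and higher in all 3 libraries of 24 months. The log2 changes were 1.57 ± 0.15 from P18 to P75 (adjusted p = 1.6e-06), 0.64 ± 0.15 from 6 to 24 months (adjusted p = 0.0091) and 2.34 ± 0.15 over the whole span (adjusted p = 2.2e-09).

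Lgr4, its close relative and the most abundant gene of this group per kilobase, had 524, 463 and 475 at P18, 1017, 845 and 1044 at P75, 1163, 960.4 and 1158 at 6 months and 1239, 1455 and 1330.2 at 24 months. It rose by 0.98 ± 0.10 on the log2 scale from P18 to P75 (adjusted p = 4.2e-06) and by 1.46 ± 0.10 in all (adjusted p = 7.4e-09). Its step from 6 to 24 months, 0.30 ± 0.10 (adjusted p = 0.057), was lost for libraries of the same total (adjusted p = 0.20) and without replicate 2 of 6 months or replicate 2 or 3 of 24 months (adjusted p 0.10 to 0.23). Rspo3 was the one member called higher at each of the 3 steps, with 90.3, 106 and 125 at P18, 145, 146 and 171 at P75, 283, 245 and 286 at 6 months and 359.6, 361 and 319 at 24 months. No consecutive ages overlapped in Rspo3, and the log2 changes were 0.53, 0.81 and 0.35 (SE 0.13 each, adjusted p = 0.004, 8.4e-05 and 0.065). The last of these was lost without replicate 1 or 2 of either 6 or 24 months, where its adjusted p was 0.12 to 0.22, and for libraries of the same total (adjusted p = 0.19).

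Rspo2 had 76.0, 88.1 and 79.4 at P18, 165, 119 and 171 at P75, 265, 228 and 317 at 6 months and 262, 316 and 322 at 24 months. It rose at the first 2 steps by 0.88 and 0.83 (SE 0.16 each, adjusted p = 0.00034 and 0.00033). Rspo1 had 79.6, 87.0 and 100.4 at P18, 159, 178 and 132 at P75, 126, 153 and 196 at 6 months and 216, 213 and 186 at 24 months. Unlike Rspo2 it did not change from P75 to 6 months beyond its spread (0.00 ± 0.16), and it rose by 1.20 ± 0.16 over the whole span (adjusted p = 8.3e-06).

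The summed normalized read count of the 9 secreted inhibitors was 1233 to 1458 at P18, 2823 to 3119 at P75, 4523 to 4909.5 at 6 months and 4459 to 5350.3 at 24 months. Of the 7 tested, 6 rose from P18 to 24 months and none fell. Dkk3, a divergent member of the Dickkopf family (chromosome 7, 119259533 to 119302571, minus strand, mm9), made up most of this sum and of its rise. It had 915, 1026 and 1130.0 at P18, 2256, 2549.7 and 2272 at P75, 4264, 3876 and 3956 at 6 months and 3718, 4260.0 and 4632 at 24 months. The first 3 ages were apart and the last 2 overlapped, with log2 changes of 1.21 ± 0.10 (adjusted p = 4.3e-07) and 0.77 ± 0.10 (adjusted p = 1e-05) at the first 2 steps and 2.04 ± 0.10 in all (adjusted p = 2.7e-10).

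Sfrp5 and Sfrp1 bind Wnt proteins outside the cell. Sfrp5 had 52.3, 73.4 and 37.2 at P18, 171, 179 and 122 at P75, 176, 216 and 193 at 6 months and 203, 211 and 161 at 24 months, so that only P18 stood apart (P18 to P75, log2 change 1.55 ± 0.21, adjusted p = 3.3e-05). Sfrp1 had 118, 133 and 112 at P18, 193, 193 and 190.1 at P75, 306, 251 and 252 at 6 months and 276, 241 and 281 at 24 months. It rose at the first 2 steps by 0.67 and 0.48 (SE 0.12 each, adjusted p = 0.0003 and 0.0026). Wif1, another extracellular Wnt-binding protein, was low, with 32.1, 28.2 and 34.2 at P18, 50.1, 38.0 and 54.2 at P75, 52.8, 46.2 and 49.6 at 6 months and 73.3, 59.5 and 75 at 24 months. Its change over the whole span was 1.11 ± 0.18 (adjusted p = 6.4e-05). Dkk2 and Sfrp2 were exceptions that fell from P75 to 6 months (log2 changes -0.92 ± 0.32 and -0.39 ± 0.16, adjusted p = 0.022 and 0.051). Both were called higher again at 24 months, from means of 10.4 and 82.8 at 6 months to 21.9 and 116. Dkk2 rested on only 8 to 28 reads per library, and Sfrp2 shares exon bases with Gm16790. Their calls were not followed gene by gene through the alternatives.

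**Figure D4:**
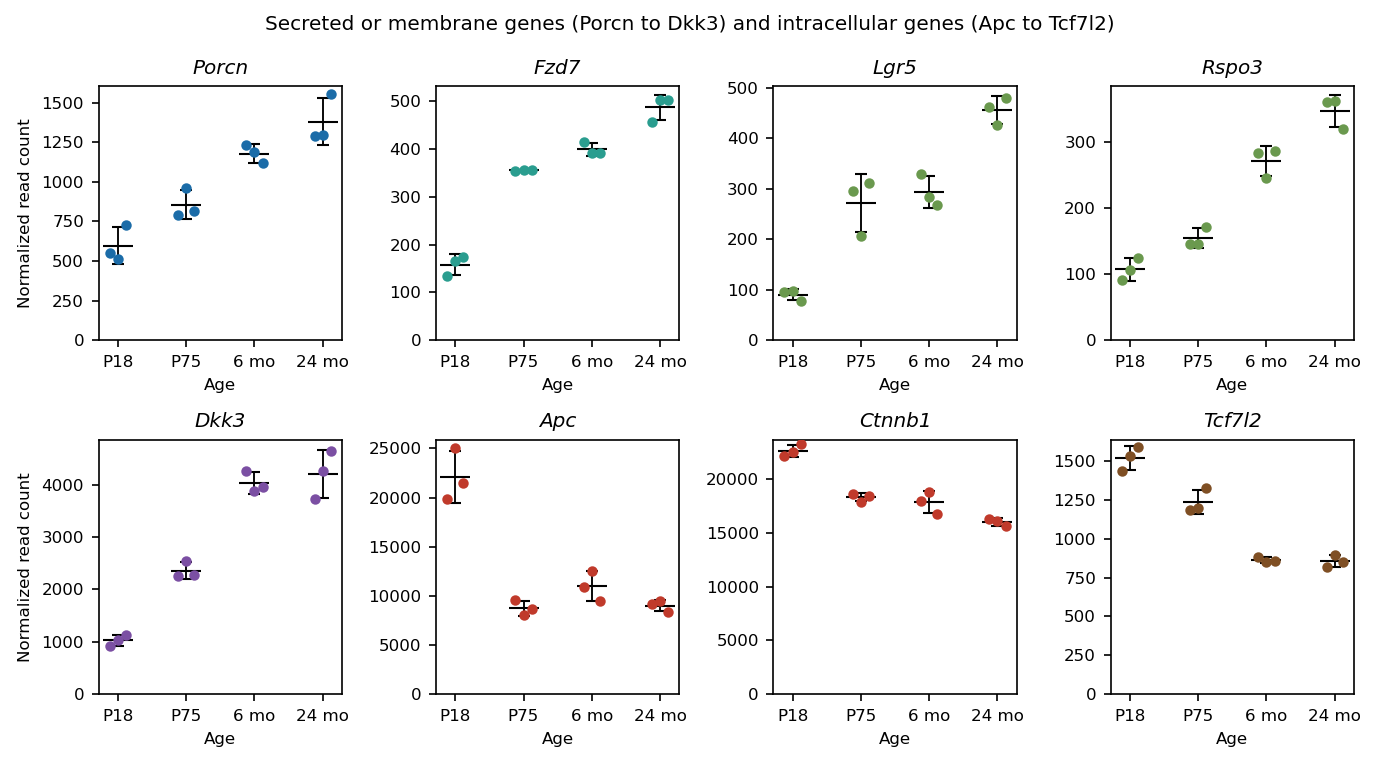
Normalized read counts by age for 5 secreted or membrane genes (Porcn, Fzd7, Lgr5, Rspo3, Dkk3) and 3 intracellular genes (Apc, Ctnnb1, Tcf7l2); points are single libraries, bars the mean ± SD (n = 3), and each vertical axis starts at 0. In the first 5 panels all P18 libraries lie below all 24-month libraries, such as 915 to 1130.0 against 3718 to 4632 for Dkk3, and for Apc, Ctnnb1 and Tcf7l2 they lie above them.

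Markers of several other cell types rose over the same ages, and those of others did not. All 5 choroid plexus markers were higher at 24 months than at P18, with a summed normalized read count of 12580 to 14675 at P18, 23493 to 28906 at P75, 27490 to 31870 at 6 months and 42695 to 47351 at 24 months. Of the 6 meningeal fibroblast markers, 4 rose and none fell, with sums of 1772 to 2486, 1975 to 2544, 3801 to 4013 and 3730 to 4448 at the 4 ages in order. Microglia markers rose in 7 of 8, with sums of 3999.7 to 5150.0 at P18 and 10546 to 12381 at 24 months. Thalamic neuron markers rose in 3 of 6 with 1 lower, with sums of 3913 to 4298 at P18 and 6740.4 to 7550.1 at 24 months. Endothelial markers rose in 4 of 7 with 1 lower, with sums of 1551 to 1653 at P18 and 2035 to 2187 at 24 months. Olfactory sensory neuron markers rose in 3 of 4 tested with 1 lower, astrocyte markers in 5 of 9 with 2 lower and mural cell markers in 2 of 5 with 1 lower. General neuron markers had 4 higher and 4 lower of 10, cerebellar granule neuron markers 3 higher and 3 lower of 6, and forebrain excitatory neuron markers none higher and 4 lower of 5. None of the choroid plexus or meningeal markers was at 0 in any library. The part of these cell types in the rise of the secreted and membrane Wnt genes was not tested.

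Inside the cell, the 3 dishevelled genes differed from each other. Dvl1, the most abundant of them per kilobase, had 1379.6, 1488 and 1628 at P18, 1660.5, 1594 and 1498 at P75, 1431, 1631 and 1612 at 6 months and 1733, 1782 and 1889 at 24 months. It varied little and was highest in the 3 libraries of 24 months (P18 to 24 months, log2 change 0.27 ± 0.09, adjusted p = 0.012). Dvl3 had 149.7, 239.5 and 235 at P18, 117, 86.2 and 60.8 at P75, 346, 297 and 280.2 at 6 months and 168, 154 and 213 at 24 months. No consecutive ages overlapped, and the gene moved down, up and down again by -1.25, 1.84 and -0.79 (SE 0.22 each, adjusted p = 0.00027, 4.8e-06 and 0.019). Dvl1 shares exon bases with Tas1r3, and how reads in such bases were counted is not given in the sources used here.

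Of the 12 genes for beta-catenin, the destruction complex and casein kinase 1, 10 fell from P18 to 24 months and none rose. Apc, a component of the destruction complex, had 19827, 25006 and 21463 normalized reads at P18, 9572, 8052 and 8625 at P75, 10924, 12564 and 9522 at 6 months and 9183, 9451 and 8368 at 24 months. P18 stood far above all later ages (P18 to P75, log2 change -1.33 ± 0.12, adjusted p = 9.7e-07), which lay within 8052 and 12564. Among these, a rise from P75 to 6 months was called. It was lost without replicate 2 of P75 or replicate 2 of 6 months (adjusted p = 0.12 and 0.15 by limma). Apc was the one member to fall at least 2-fold from P18 to 24 months (-1.29 ± 0.12, adjusted p = 1.2e-07). The gene fell together with 7 of the 8 mature oligodendrocyte and myelin markers and 7 of the 8 markers of newly formed oligodendrocytes. Median log2 changes of these lists over this span were -1.21 and -0.91. The other marker of newly formed oligodendrocytes, Bcas1, rose from a mean of 46351 to 137230. With it the sum of that list rose, from 31727 to 78230 at P18 to 118496 to 165643 at 24 months. Oligodendrocyte precursor markers had 2 higher and 1 lower of 5. The part of these cells in the change of Apc was not tested.

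Ctnnb1, which codes for beta-catenin (chromosome 9, 120838334 to 120869625, plus strand, mm9), had 22152, 22483 and 23256 at P18, 18629, 17866 and 18463 at P75, 17978, 18846 and 16788 at 6 months and 16331, 16097 and 15619 at 24 months. All P18 libraries lay above and all 24-month libraries below the others, for a log2 change of -0.50 ± 0.10 (adjusted p = 0.00026). The first step, -0.30 ± 0.10 (adjusted p = 0.018), was not called when libraries were scaled to the same total (-0.18, adjusted p = 0.25). Axin2 had 299, 296 and 419 at P18, 314, 308 and 265 at P75, 251, 226 and 234 at 6 months and 241, 274 and 292 at 24 months. Axin2 changed little, and its fall over the whole span (-0.31 ± 0.13, adjusted p = 0.049) was lost without replicate 3 of P18 (-0.15, adjusted p = 0.28) or replicate 1 of 24 months (-0.24, adjusted p = 0.18). It was also lost for libraries of the same total (-0.24, adjusted p = 0.22). A fall from P75 to 6 months was called too. It was lost for libraries of the same total and without replicate 1 or 2 of P75 or replicate 2 or 3 of 6 months (adjusted p 0.11 to 0.15 by limma). Ctnnb1 and Axin2 share exon bases with Ulk4 and Gm11670.

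The falls of the other members of this group were smaller than that of Apc. From P18 to 24 months the log2 change was -0.78 ± 0.08 for Gsk3b and -0.66 ± 0.10 for Gsk3a, the 2 forms of glycogen synthase kinase 3 (adjusted p = 5.2e-07 and 2.5e-05), and it ran from -0.32 to -0.68 for the casein kinases Csnk1a1, Csnk1d, Csnk1e, Csnk1g1 and Csnk1g3. Csnk1g2 and Axin1 were not called, with -0.07 ± 0.11 and -0.24 ± 0.14. The summed normalized read count of the 12 genes was 65747 to 70762 at P18, 45547 to 47303 at P75, 45480 to 50855 at 6 months and 41074 to 42618 at 24 months. The largest drop of the sum was thus between P18 and P75, to which Apc contributed most reads.

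The TCF/LEF factors followed separate courses. Tcf7l2, the most abundant of them (chromosome 19, 55816300 to 56008144, plus strand, mm9), had 1435, 1536 and 1589 at P18, 1184, 1201 and 1327 at P75, 886, 852 and 858 at 6 months and 818, 897 and 854 at 24 months. It fell at each of the first 2 steps, with no overlap, and was then level within its spread. The log2 changes were -0.30 ± 0.08 (adjusted p = 0.0066; -0.17 and adjusted p = 0.24 for libraries of the same total), -0.51 ± 0.08 (adjusted p = 5.7e-05) and -0.02 ± 0.08. Tcf7l1, which often acts as a repressor, had 79.6, 74.6 and 74.3 at P18, 49.1, 52.8 and 46.4 at P75, 44.7, 59.5 and 49.6 at 6 months and 38.6, 40.0 and 50 at 24 months. P18 lay above all later ages, with -0.82 ± 0.17 over the whole span (adjusted p = 0.00048).

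Tcf7 was low and had 32.1, 37.3 and 34.2 at P18, 46.1, 34.3 and 24.3 at P75, 31.7, 32.8 and 39.9 at 6 months and 47.6, 43.2 and 50 at 24 months. Its change over the whole span, 0.43 ± 0.22, was called at an adjusted p of 0.097 and lost without any one replicate of P18 or 24 months (adjusted p 0.11 to 0.20). Under quantile normalization it was 0.14 (adjusted p = 0.58 by limma), and it was also lost with DESeq2 (0.45, adjusted p = 0.14). Leaving out the filter on low values, replicate 2 of P75 or any one replicate of 6 months lost it too (adjusted p 0.10 to 0.14 by limma). Lef1 had 30.9, 31.6 and 24.1 at P18, 19, 22.2 and 12.2 at P75, 51.2, 66.6 and 57.4 at 6 months and 18.8, 35.7 and 32.4 at 24 months. The 3 libraries of 6 months lay above all others, with steps of -0.70, 1.69 and -1.03 (SE 0.27 each, adjusted p = 0.048, 8.1e-05 and 0.016). Without replicate 1 or 2 of P18 or replicate 3 of P75 the first step was not called (adjusted p 0.11 to 0.21).

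Besides Dvl3 and Lef1, the kinases Csnk1d and Gsk3a were called lower, higher and lower again at the 3 steps, and were named after their values were seen. How many of all genes took this course was not counted. Csnk1d had 2706, 2448 and 2438 at P18, 1904, 1871 and 1709 at P75, 2137, 2101 and 2118 at 6 months and 1553, 1693 and 1706 at 24 months. Gsk3a had 3667, 4080.1 and 4105 at P18, 2788, 2782 and 2201 at P75, 3064, 3488 and 3176 at 6 months and 2367, 2477 and 2668 at 24 months. In neither gene did consecutive ages overlap. Dvl3 and Lef1 were highest at 6 months, whereas Csnk1d and Gsk3a were highest at P18. Gsk3a shares exon bases with 9130221H12Rik and Csnk1d with Slc16a3.

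**Figure D5:**
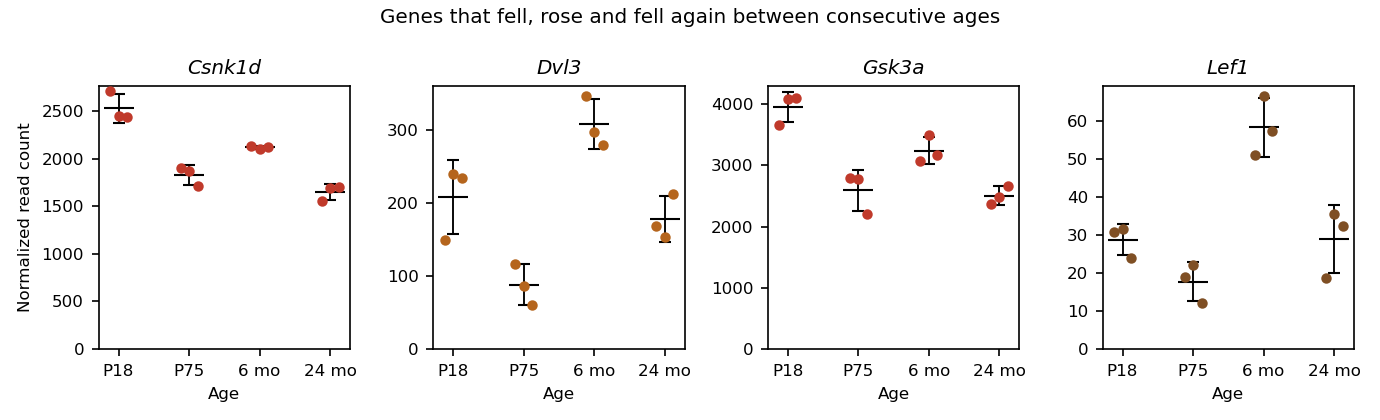
Normalized read counts by age of Csnk1d, Dvl3, Gsk3a and Lef1, the 4 members called lower, higher and lower again between consecutive ages; points are single libraries, bars the mean ± SD (n = 3), and axes start at 0. Dvl3 reaches 280.2 to 346 and Lef1 51.2 to 66.6 at 6 months, above all their other libraries.

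A wider list of 65 pathway genes outside the chosen names had 62 that could be tested. From P18 to 24 months 22 rose and 22 fell, with a median log2 change of 0.06, close to the background of all genes. Changes of at least 2-fold were called for 10 higher and 2 lower of the 62, close to the 18.4% of all genes called either way. Those that rose had several roles, among them secretion, extracellular control and planar cell polarity. Wls, which carries Wnt proteins to the cell surface, went from 530.3 ± 122 at P18 to 1718 ± 135 at 24 months (mean ± SD, n = 3 each; log2 change 1.71 ± 0.13, adjusted p = 1.4e-08 by limma), and the secreted inhibitor Frzb from 204 ± 13.9 to 610.3 ± 58.1 (1.57 ± 0.11, adjusted p = 8.1e-09). Sostdc1, another secreted antagonist, rose by 1.49 ± 0.15 and Bambi, a membrane protein that modulates TGF-beta and Wnt signals, by 1.43 ± 0.17. Celsr3, Celsr2, Vangl2 and Ptk7, which have roles in planar cell polarity, rose by 1.41 ± 0.21, 1.34 ± 0.12, 1.04 ± 0.20 and 1.02 ± 0.14, and Celsr1 rose by 1.42 ± 0.22 from P18 to P75. Other genes of the list with such roles, named after their values were seen, did not follow them: Daam1 and Prickle2 fell (-0.45 and -0.23, adjusted p = 0.00016 and 0.02), and Prickle1, Vangl1 and Daam2 were not called. Gpr124, a Wnt7 coreceptor, rose by 1.09 ± 0.16 and the corepressor Tle2 by 1.47 ± 0.16. Ctnnbip1, an inhibitor of beta-catenin, fell from 2791 ± 729.7 to 1030 ± 109.6 (-1.41 ± 0.16, adjusted p = 2e-06).

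From P75 to 6 months the wider list had 22 higher (35.5%) and 18 lower (29.0%), close to the 31.2% and 29.4% of all genes, with 2 named increases. Tnks, a tankyrase that marks Axin for degradation, rose from 200.5 ± 64.3 to 567 ± 89.3 (log2 change 1.53 ± 0.17) and fell to 288 ± 30.0 at 24 months (-0.97 ± 0.17, adjusted p = 0.0022 by limma), having also fallen from P18 to P75 (-0.81 ± 0.17). Apcdd1, a membrane inhibitor, rose by 1.54 ± 0.16 between falls of -0.80 from P18 to P75 and -0.56 from 6 to 24 months (adjusted p = 0.00093 and 0.024), and was not called from P18 to 24 months. From P18 to P75 the list had 18 higher (29.0%) and 24 lower (38.7%), against 25.9% and 22.9% of all genes. From 6 to 24 months it had 5 higher (8.07%) and 12 lower (19.35%), against 16.6% and 12.7% of all genes.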

How the data were processed

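RNA was measured in 12 libraries of myelin, 3 at each of 4 ages. According to the methods and the submitters' processing notes, the authors aligned reads with TopHat2 (2.0.8 in the notes) to mm9, handled alignments with SAMtools (0.1.19), counted reads per gene with HTSeq (0.5.4p1) and normalized them with DESeq. The deposited values are this signal: read counts per gene divided by a size factor per library, which corrects for depth but not for gene length. The annotation, the strand setting and the treatment of reads with several alignments are not given in the sources used here. All values up to 10000 were whole multiples of 1 read within 0.02, and 20299052 to 27214385 reads per library were recovered, so that the lowest genes rest on few reads. No column was left unused.

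Genes averaging 10 or more across the libraries were tested on log2(normalized read count + 1) with limma 3.58.1 (R 4.3.3, trend, empirical Bayes), in 1 fit over the 12 libraries, two-sided, with Benjamini-Hochberg adjustment over 14634 genes and calls at an adjusted p under 0.1. P-values rest on 1 estimate per gene of the spread between libraries, shared by all ages and moderated across genes. A library of an age outside a comparison can therefore change its calls. An exact permutation test of 3 against 3 could not go below 0.1. Pseudocounts, filters, scalings, edgeR 4.0.16, DESeq2 1.42.0, a replicate block and leaving out each library were tried as alternatives. The scripts were tested on simulated data.

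Members were taken by symbol, and the role groups, the wider list, the cell type markers and the members were chosen with earlier results of these data known. Named with the value in every library were members called with a log2 change of at least 1 either way in any comparison and a mean of at least 50, the member of each role with most normalized reads per kilobase, and Axin2, Ctnnb1, Apc, Lef1, Tcf7, Tcf7l1, Tcf7l2 and Wif1. The wider list was named by the same change and mean. Exon lengths and positions came from the GENCODE annotation of mm9, which held 66 of the 67 members, and 12 of them shared exon bases with another gene. Promoters came from RefSeq.

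Replicate numbers are shared between ages. Deviations of same-numbered libraries from their age means correlated over 0.1 in all 3 pairs only between P75 and 6 months (0.16, 0.10 and 0.19). They came from different mice, and this pairing rests on the numbers alone. The library codes in the column names run in a separate block for each age, and what they stand for is not given. Age cannot be told apart from anything else that the libraries of an age shared.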

Additional observations from a re-analysis of the deposited data

How the results depend on the processing

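Members called changed from P18 to P75 and from P75 to 6 months stayed within 1.5 times of 37 and 32 under every alternative run. From 6 to 24 months the 17 calls became 10 at a false discovery rate of 0.05, and from P18 to 24 months the 50 calls became 33 when only genes with a mean over 100 were tested, a filter that left 38 members. Leaving out 1 library at a time gave 32 to 42 calls from P18 to P75, 29 to 32 from P75 to 6 months, 9 to 24 from 6 to 24 months and 45 to 51 from P18 to 24 months. With a replicate block, 38, 33, 15 and 50 members were called in the 4 comparisons in this order. Of 69 called changes of named members, 52 kept direction and call in all alternatives, 17 missed the threshold in at least 1, and none turned its direction. Several of the 17 belong to the step from 6 to 24 months, where Dvl1, Fzd7, Lgr4, Rspo1, Rspo3 and Wif1 were not called for libraries of the same total (adjusted p = 0.33, 0.23, 0.20, 0.18, 0.19 and 0.18 by limma). With the replicate block Dvl1 and Rspo1 from 6 to 24 months (adjusted p = 0.11 and 0.12) and Tcf7 from P18 to 24 months (adjusted p = 0.12) missed the threshold, and no other call of a named member was lost. The cause of these differences was not tested. Depth limits the lowest genes: Dkk4 had no read in any library, and Lef1 rested on 11 to 75 reads per library.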
